A study of Arabidopsis thaliana with 4 samples.

Results

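Plant cells read changes in free calcium with proteins that bind the ion, and the genes described here are calcium sensors and calmodulin-binding genes of Arabidopsis thaliana. Calmodulin and the calmodulin-like (CML) proteins bind calcium through EF hands, change shape and then act on other proteins. IQ-domain (IQD) proteins are a plant family that binds calmodulin, and several of them sit on microtubules and at membranes, where they are thought to act as scaffolds. The genes were chosen by name, with earlier results of these data known. The rule took every probe set of the array annotated to exactly 1 nuclear gene. The gene's symbol had to begin with IQD, CML, CAM, CPK, CIPK, CBL or CNGC and a number. That gave 18 genes, each with 1 probe set, of 13287 genes measured by a probe set of their own. They are 11 IQD genes, out of 24 IQD symbols in RefSeq, and 7 CML genes, out of 8 CML symbols. The 86 RefSeq symbols of calmodulins (CAM), calcium-dependent kinases (CPK), calcineurin B-like proteins (CBL), their partner kinases (CIPK) and cyclic nucleotide-gated channels (CNGC) had no probe set annotated in this way and were not analysed here.

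By their labels, the arrays came from whole seedlings of ecotype Columbia. Seedlings of 2 arrays had received GSH for 72 hours, and those of the other 2 were controls. GSH is reduced glutathione, the main thiol tripeptide of plant cells. All seedlings had grown for 15 days after germination, and no other genotype or agent is named. The dose of GSH, and whether control seedlings were kept for the same further hours, are not given in the sources used here. Values are log2 expression values from RMA, so a difference of 1 is a 2-fold change, and levels of different genes cannot be set against each other on this scale.

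The GSH and the control arrays each correlated at r = 0.998 across probe sets, a description of the arrays. Of 22746 probe sets tested, 33.8% passed a Benjamini-Hochberg adjusted p of 0.05 with limma, 16.2% higher and 17.5% lower on the GSH arrays, and the median difference was -0.01. The 27 probe sets for Bacillus RNA spiked into the samples had a median difference of -0.26 and the probe set for 25S ribosomal RNA one of -2.97, and their part in the results was not tested. The green-tissue markers measured, LHCB4.1, LHCB4.2, LHCB4.3 and RCA, differed by -0.42 to -0.21, and 2 of 4 passed. The 3 root markers measured, PYK10, EXPA7 and EXPA18, had group means between 3.93 and 4.33, near the 4.06 below which the lowest 25% of probe sets lie, and 0 passed with limma (1 at an unadjusted p under 0.05). These 3 root probe sets gave little signal, although the labels name whole seedlings, and the share of root in the samples was not tested. In samples of mixed tissue, fewer cells of a type and less RNA per cell cannot be told apart.

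GSH-treated seedlings had more signal for the sensor genes CML30, CML42 and CML41 and less for the IQ-domain genes IQD24, IQD22, IQD28 and IQD23. These 7 of 18 genes passed the limma threshold (38.9%, beside 33.8% of all probe sets, a share near the background). All 3 CML genes that passed were higher and all 4 IQD genes that passed were lower. Of the CML genes 3 of 7 passed as higher, where 16.2% of all probe sets did. Of the IQD genes 4 of 11 passed as lower, where 17.5% of all probe sets did. These directions were read from the same data. In either direction 42.9% of the CML genes and 36.4% of the IQD genes passed, beside 33.8% of all probe sets. No test set either family against other genes. The median difference was 0.31 for the CML genes and -0.15 for the IQD genes, against -0.01 for all probe sets. These medians are the values of CML23 and IQD30, neither of which passed.

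**Figure D1:**
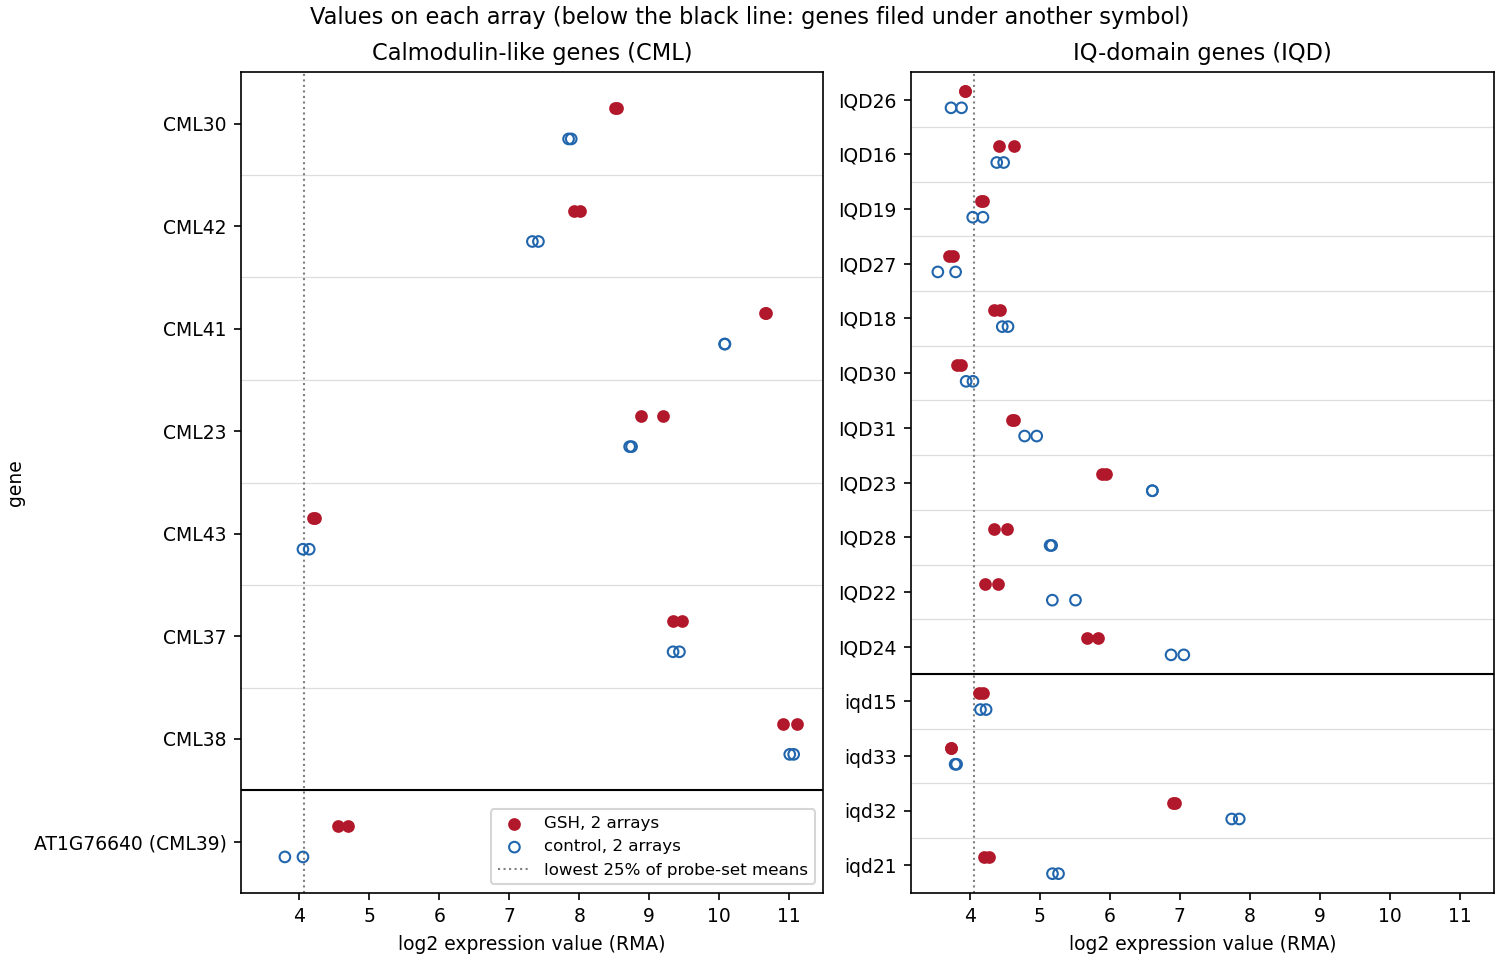
Log2 expression value (horizontal axis) of each CML gene (left) and IQD gene (right) on each array, with GSH arrays as filled red points above control arrays as open blue points. The dotted line is the 25% point of all probe-set means (4.06), and genes below the black line belong to the families but are filed under another symbol. CML30, CML41 and CML42 lie apart with GSH on the right, and IQD22, IQD23, IQD24 and IQD28 lie apart with GSH on the left.

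Among the 7 CML genes chosen by the rule the largest difference was that of CML30 (AT2G15680), whose protein has been located to mitochondria. Its log2 values were 8.51 and 8.54 in GSH-treated seedlings, against 7.85 and 7.89 in control seedlings. Both GSH arrays were above both control arrays, with a gap of 0.63 between the groups, while arrays of the same group were at most 0.04 apart. CML30 was 1.58-fold higher with GSH (log2 difference 0.66 ± 0.07, SE, n = 2 per group, limma adjusted p = 0.000598).

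CML42 (AT4G20780) is known as a negative regulator of defence against insects and for its part in the branching of leaf hairs. It gave 7.93 and 8.01 on the GSH arrays, against 7.42 and 7.33 on the control arrays. The groups did not overlap, and the gap of 0.51 was wider than either pair of replicates. The difference was 0.60 ± 0.07 log2 units, or 1.51-fold (limma adjusted p = 0.0013). CML43 (AT5G44460), its close relative, read 4.196 and 4.225 with GSH and 4.053 and 4.142 in controls. Those values are near the lowest 25% of probe sets, and the difference of 0.11 did not pass (95% interval -0.06 to 0.29, limma adjusted p = 0.291).

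CML41 (AT3G50770) acts at plasmodesmata, where it promotes callose deposition after bacterial flagellin is sensed. Its values were 10.65 and 10.66 on the GSH arrays, against 10.08 on both control arrays. Replicates differed by 0.01 in each group and the groups by 0.58 ± 0.07 log2 units, or 1.49-fold (limma adjusted p = 0.000967). CML23 (AT1G66400), which with a close relative affects flowering time and nitric oxide levels, gave 9.20 and 8.88 with GSH and 8.72 and 8.75 in controls. Both GSH arrays were the higher ones, but they were 0.31 apart while the gap between the groups was 0.14, and the difference of 0.31 ± 0.11 did not pass (limma adjusted p = 0.0751). Without GSH replicate 1 the difference was 0.15 (limma adjusted p = 0.261). Without GSH replicate 2 it was 0.46 and passed (limma adjusted p = 0.0139), as it did with a prior that depends on the mean (limma adjusted p = 0.0226). Without moderation of the spread it did not pass (adjusted p = 0.354).

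The remaining sensors, CML37 and CML38, showed overlapping groups. CML37 (AT5G42380), which acts in jasmonate-dependent defence against herbivores, read 9.47 and 9.33 with GSH and 9.43 and 9.34 in controls. Its difference was 0.01 log2 units (95% interval -0.18 to 0.21). CML38 (AT1G76650), known from low-oxygen responses, where its protein is found in cytoplasmic RNA granules, read 11.11 and 10.92 with GSH and 11.01 and 11.06 in controls. Its difference was -0.02 (95% interval -0.23 to 0.19).

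A further CML gene carries a locus code in place of a symbol and so falls outside the rule. AT1G76640 has the RefSeq synonym CML39, which the table also gives to CML37, and it lies directly next to CML38 with no protein-coding gene between them. It read 4.70 and 4.56 with GSH, against 4.05 and 3.79 in controls. The groups were 0.51 apart, and the gene was 1.63-fold higher (0.71 ± 0.11, limma adjusted p = 0.00271). Its control mean lies in the lowest 25% of probe sets, where a signal may be little above background, which leaves the size uncertain. The neighbours thus differed in their calls, though the difference between them was not tested.

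**Figure D2:**
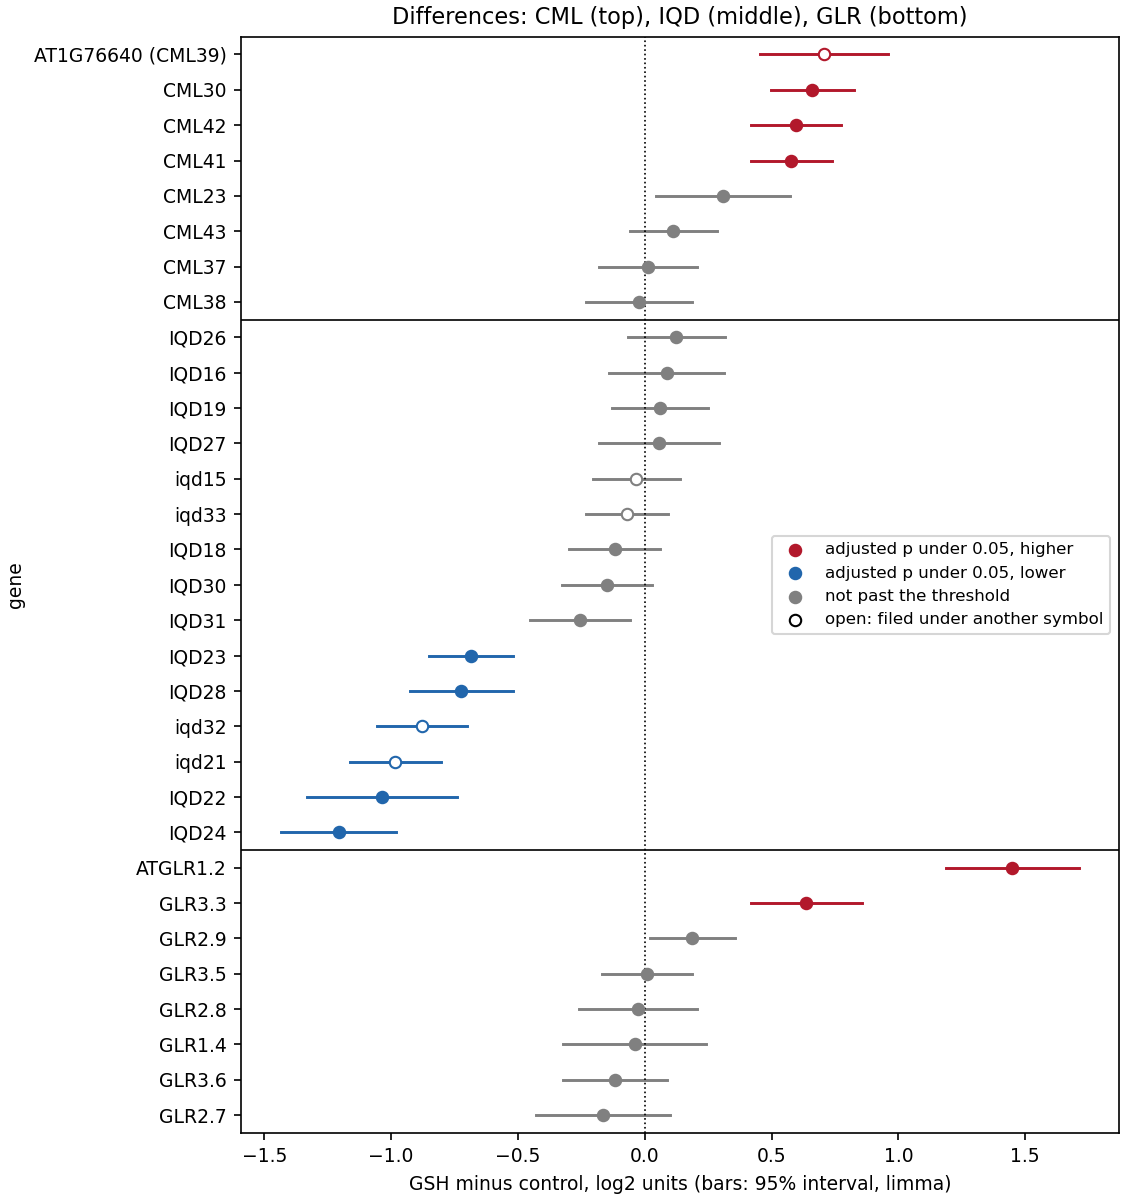
Difference in log2 value, GSH minus control, with 95% intervals from limma for the CML genes (top), the IQD genes (middle) and the glutamate receptor-like (GLR) genes (bottom). Red genes passed the threshold as higher, blue genes as lower and grey genes did not pass, and open points mark genes filed under another symbol. Red points stand in the CML and GLR groups, from 0.58 for CML41 to 1.45 for ATGLR1.2, and blue points in the IQD group, down to -1.21 for IQD24.

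Among the calmodulin-binding IQD genes, IQD24 (AT5G07240) differed most. It read 5.68 and 5.84 in GSH-treated seedlings, against 7.06 and 6.88 in control seedlings. Both GSH arrays were below both control arrays, with 1.04 log2 units between the groups and at most 0.18 between replicates. IQD24 was 2.31-fold lower with GSH (log2 difference -1.21 ± 0.09, SE, n = 2 per group, limma adjusted p = 0.000198).

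IQD22 (AT4G23060) read 4.40 and 4.22 with GSH, against 5.51 and 5.18 in controls. The control arrays were 0.33 apart, the widest pair among the genes that passed, and the gap between the groups was 0.78. The gene was 2.05-fold lower (-1.04 ± 0.12, limma adjusted p = 0.00107). Its GSH mean of 4.31 was little above the lowest 25% of probe sets, where differences are of uncertain size.

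IQD23 (AT5G62070) gave 5.95 and 5.89 on the GSH arrays, against 6.61 on both control arrays, and was 1.61-fold lower (-0.69 ± 0.07, limma adjusted p = 0.000531). IQD28 (AT1G14380) gave 4.53 and 4.35 with GSH, against 5.15 and 5.17 in controls, and was 1.65-fold lower (-0.72 ± 0.08, limma adjusted p = 0.000978). For both genes the groups were at least 0.62 apart and replicates at most 0.18 apart. The 95% intervals of the difference ran from -0.85 to -0.52 for IQD23 and from -0.93 to -0.52 for IQD28.

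IQD31 (AT1G74690) came next and did not pass. Its values were 4.63 and 4.61 with GSH and 4.96 and 4.79 in controls, without overlap, and the difference was -0.26 ± 0.08 (limma adjusted p = 0.0551). Without control replicate 1 it was -0.17 (limma adjusted p = 0.286), and without control replicate 2 it was -0.34 and passed (limma adjusted p = 0.0384). It also passed when the lowest 25% of probe sets were left out (limma adjusted p = 0.0448), but not with a prior that depends on the mean (limma adjusted p = 0.1).

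The other 6 IQD genes had differences between -0.15 and 0.12 log2 units. They are IQD30 (-0.15), IQD18 (-0.12), IQD27 (0.06), IQD19 (0.06), IQD16 (0.09) and IQD26 (0.12). All of them had group means between 3.67 and 4.52, and IQD26, IQD27 and IQD30 lay in the lowest 25% of probe sets in both groups. For such dim probe sets a change in the transcript could be hidden, and a lack of a call says little about the genes. In the whole set, arrays of the groups did not overlap for 13 of 18 genes, where 65.2% of all probe sets did not overlap. They did not overlap and were at least 1.5-fold apart for 6 of 18 genes, where 12.3% of all probe sets met both conditions.

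The platform annotation writes 4 further genes of the family in lower case, which puts them outside the rule as it is worded. Of these, iqd21 (AT3G49260) read 4.28 and 4.21 with GSH, against 5.18 and 5.27 in controls. It was 1.98-fold lower (-0.98 ± 0.07, limma adjusted p = 0.000169). Similarly, iqd32 (AT1G19870) read 6.94 and 6.90 with GSH, against 7.85 and 7.74 in controls, and was 1.84-fold lower (-0.88 ± 0.07, limma adjusted p = 0.000268). In both genes the gap between the groups was at least 0.81. The GSH mean of iqd21 was 4.24, little above the lowest 25% of probe sets, where differences are of uncertain size. The other two, iqd15 (-0.03) and iqd33 (-0.07), did not pass and had group means in the lowest 25% of probe sets or little above it. With these 4 genes and AT1G76640 counted, 6 of 15 IQD genes passed as lower, beside 17.5% of all probe sets. Of the CML genes 4 of 8 passed as higher, beside 16.2% of all probe sets. In either direction 40% of these IQD genes and 50% of these CML genes passed, beside 33.8% of all probe sets.

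**Figure D3:**
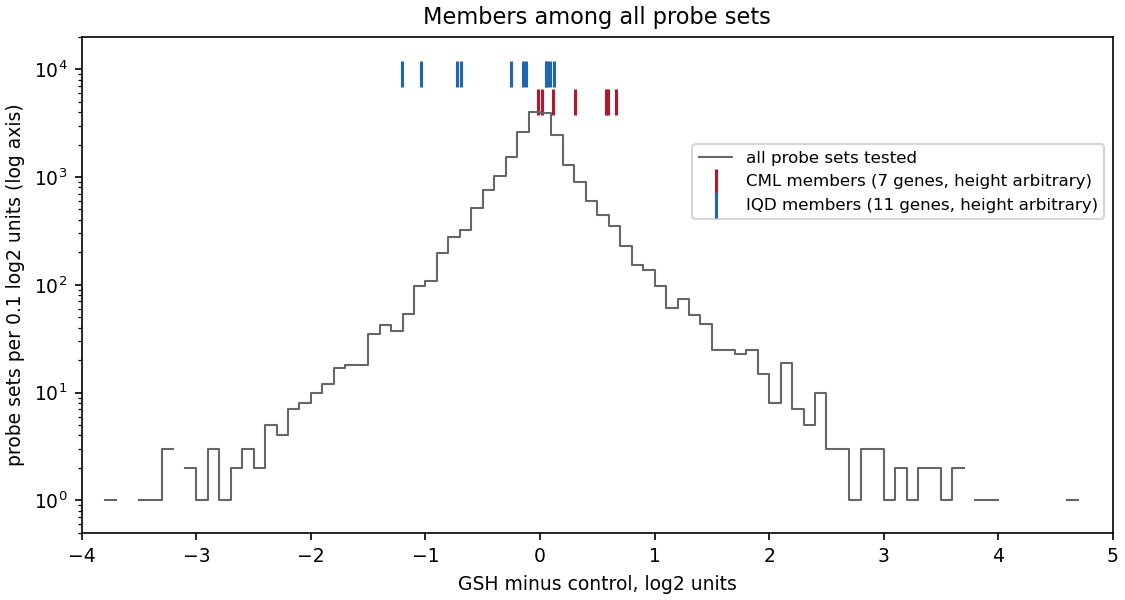
Differences of all 22746 probe sets (grey line, probe sets per 0.1 log2 units, log axis) with the 7 CML genes (red ticks) and the 11 IQD genes (blue ticks) above, at arbitrary height. CML genes run from -0.02 to 0.66 and IQD genes from -1.21 to 0.12, all within the range of the other probe sets (-3.70 to 4.64).

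Upstream of the sensors, calcium enters the cytosol through channels, among them the glutamate receptor-like (GLR) family. GLR3.3 is known in Arabidopsis as a channel needed for calcium rises triggered by amino acids and by glutathione. GLR3.3 (AT1G42540) read 5.70 and 5.85 in GSH-treated seedlings, against 5.22 and 5.06 in control seedlings. The groups did not overlap, and the gene was 1.55-fold higher (0.64 ± 0.09, limma adjusted p = 0.00223).

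ATGLR1.2 (AT5G48400), known from calcium signalling in pollen tubes, read 7.26 and 7.16 with GSH, against 5.91 and 5.61 in controls. The gap of 1.25 between the groups exceeded the 0.29 between the control arrays. It was 2.73-fold higher (1.45 ± 0.11, limma adjusted p = 0.000165). AT59 was the 1 pollen marker measured, of 16 names listed. Its probe set lay in the lowest 25% in both groups and did not pass (0.07). The share of pollen in the samples was not tested.

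The other 6 GLR genes did not pass, so 2 of 8 GLR genes passed, beside 33.8% of all probe sets past the threshold. Both were higher, as were 16.2% of all probe sets. GLR2.9 stood at 0.19 (limma adjusted p = 0.0869), with a control mean in the lowest 25% of probe sets. GLR3.6, which with GLR3.3 carries wound signals between leaves, stood at -0.12, and GLR3.5 at 0.01 with both means in the lowest 25%. GLR1.4 (-0.04), GLR2.8 (-0.03) and GLR2.7 (-0.16) had overlapping groups. GLR2.7, GLR2.8 and GLR2.9 lie next to each other in RefSeq with no protein-coding gene between them. CaS, for a calcium-sensing protein of thylakoids, differed by -0.09 and did not pass. Its means of 4.55 with GSH and 4.65 in controls were not far above the lowest 25%, so a change could be hidden. The list on calcium entry held 43 names, and only 9 genes of it were measured. Their median difference was -0.03, against -0.01 for all probe sets, and says nothing about the names not measured.

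Of the other lists, those on calcium pumps and exchangers, on substrates of the calcium-dependent kinases, on related kinases and on other names of these families matched 0 annotated genes. The list on calmodulin targets matched 1, AGL61, a MADS-domain gene placed there in error, which did not pass (0.09). A search of RefSeq synonyms for calcium and calmodulin, made after values were seen, added 5 genes, of which 2 passed, a share near the 33.8% of all probe sets. AT1G53210, whose synonym is NCL, a sodium and calcium exchanger, read 11.07 and 11.09 with GSH, against 11.64 on both control arrays, and was 1.47-fold lower (-0.56 ± 0.07, limma adjusted p = 0.00113). ACA.l (AT1G13210) is named in RefSeq's synonyms as an autoinhibited calcium ATPase. That name may be a misannotation and was not checked, so the gene may not code for a calcium pump. It read 8.46 and 8.45 with GSH, against 8.05 and 8.13 in controls (0.36 ± 0.07, limma adjusted p = 0.00827).

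**Figure D4:**
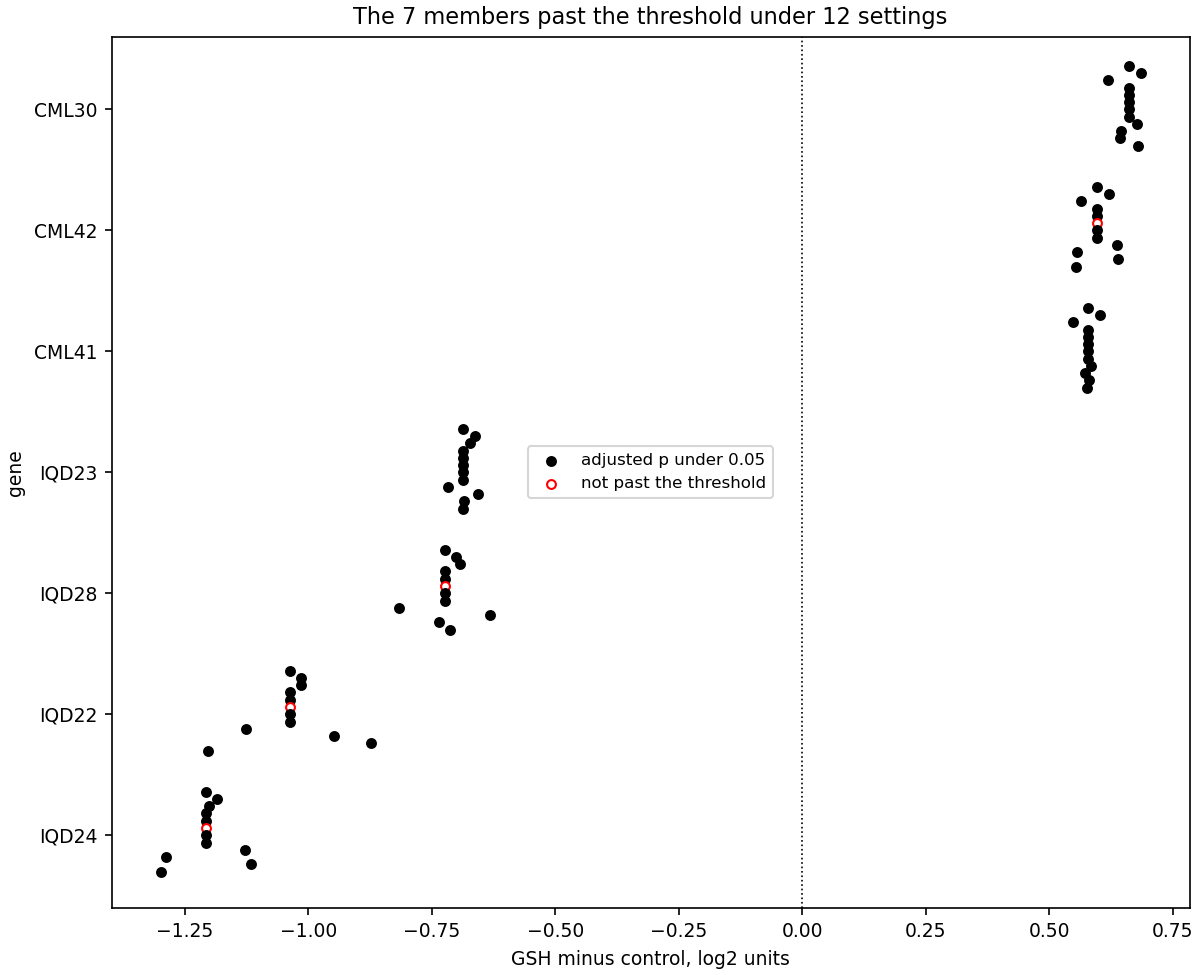
Log2 difference, GSH minus control, of the 7 members past the threshold under 12 settings each (other scalings, filters and spreads, replicate blocks and each array left out), with 1 point per setting. Filled points passed an adjusted p of 0.05 and open red points, all from the setting without moderation of the spread, did not. No point crosses 0: the CML genes stay between 0.55 and 0.68 and the IQD genes between -1.30 and -0.63.

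The direction of the 7 differences was the same under the 12 settings. CML30 ranged from 0.62 to 0.68 log2 units over the settings plotted, CML41 from 0.55 to 0.60 and CML42 from 0.55 to 0.64. IQD24 ranged from -1.30 to -1.12, IQD22 from -1.20 to -0.87, IQD28 from -0.82 to -0.63 and IQD23 from -0.72 to -0.66. All 7 passed when any 1 array was left out. With each gene's own spread in place of limma's moderated one, 3 of 7 passed, namely CML30, CML41 and IQD23, and CML42, IQD22, IQD24 and IQD28 did not. Of the genes outside the rule, AT1G76640 (adjusted p = 0.14), iqd21 (adjusted p = 0.0514), iqd32 (adjusted p = 0.0539), GLR3.3 (adjusted p = 0.117) and ATGLR1.2 (adjusted p = 0.0763) also did not pass in that way.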

How the data were processed

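Expression was measured on 4 Affymetrix one-colour arrays from biotin-labelled cRNA made from 6 µg of total RNA, per the labels' protocols. The authors deposited 1 log2 value for each probe set on each array, with RMA in Affymetrix Expression Console, per the submitters' processing notes; versions are not given in the sources used here. RMA's quantile normalization hides changes shared by most transcripts. No detection calls were used, and the number of arrays limits the precision.

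The 64 control probe sets were left out. The other 22746 were fitted with limma 3.58.1 in R 4.3.3 (lmFit, eBayes, treatment as the single factor, 2 residual and 4.55 prior degrees of freedom), with Benjamini-Hochberg adjustment over all of them and a threshold of 0.05. The fit was run on simulated data with independent normal errors and spreads drawn from limma's own prior. That run checks the code and cannot show that the calls hold in these arrays. Groups came from the titles, which call the replicates biological; no label names separate cultures. The p-values therefore measure only the spread between these arrays, which may be technical. The labels' mentions of embryos contradict the source and tissue labels and were not used.

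Names come from the platform annotation, updated by gene identifier to RefSeq symbols (TAIR10.1). Of the probe sets, 13513 carried 1 gene. No coordinates are given because the array's build is not stated. Genes given with all array values are members past the threshold and at least 1.5-fold apart and, per family, those with the smallest p and the highest mean; others named were added with their values known. Members and lists were chosen with earlier results of these data known. Alternatives were other scalings, a filter on dim probe sets, other spreads, replicate blocks, other naming rules and leaving out each array.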

Additional observations from a re-analysis of the deposited data

How the results depend on the processing

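Without moderation of the spread 3 members passed in place of 7, with 1 lower in place of 4 and 1 IQD gene in place of 4, and 1425 probe sets passed in place of 7680. Each spread then rests on 2 residual degrees of freedom. Leaving out each array in turn gave 7 to 8 members, 3 to 4 higher, 4 to 5 lower, 3 to 4 CML genes, 4 to 5 IQD genes and 6186 to 6248 probe sets. Counts stayed within 1.5 times under the other alternatives run. The rule of at least 1.5-fold without overlap gave 6 members, since CML41 fell just short. Ignoring letter case gave 9 members of a larger set and using synonyms as well 10, both chosen after seeing the data. Of 336 differences of single genes under an alternative, 323 kept their side of the threshold, 9 lost their call, all without moderation of the spread, and 4 gained one. No difference that passed in either setting changed sign, while some small ones that did not pass did. With the replicate block 7 members and 6235 probe sets passed, and the 7 calls were kept. Same-numbered arrays deviated with r = -0.103 across probe sets, and no source says that the numbers pair them. The crossed pairing, added after seeing the data, gave 7 members and 6898 probe sets. Dim probe sets limit what could be seen, with 3 of the 18 members in the lowest 25% in both groups and several others little above it.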
